A study of Mus musculus with 7 samples.

Results

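The genes described here are the constant regions of the mouse immunoglobulin chains, together with the joining chain, Jchain. They were chosen by symbol from the gene table of an RNA-sequencing series, and 10 of its 25469 genes were members: Ighm, Ighd, Ighg3, Ighg1, Ighg2b, Ighg2c and Igha for the heavy chains, Igkc and Iglc2 for the light chains, and Jchain. All 10 were found and all 10 passed the filter on low counts. The libraries came from splenic CD4+CD25+ cells of wild-type mice, male C57BL/6 by the study's methods, and the groups were 3 aged mice of 18 months and 4 young mice of 8 weeks by the labels. The labels call the libraries biological replicates, and no library carries a treatment or an altered allele. The cells were purified on magnetic beads, which can leave some other spleen cells behind, and the series was made to compare regulatory T cells (Tregs) of aged and young mice. The Treg markers Foxp3, Il2ra and Cd4 were read in every library, at 327 CPM or more (counts scaled to library size). Below, values are listed by replicate number, 1 to 3 for aged and 1 to 4 for young libraries.

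Immunoglobulin genes are the products of B cells and plasma cells and not of T cells. A naive B cell splices one long heavy chain transcript to either the mu or the delta constant region and so makes IgM and IgD together. Class switch recombination then deletes the DNA between the variable region and a constant gene farther downstream, and the cell goes on with IgG, IgE or IgA of the same specificity. On differentiation to a plasma cell the secreted forms of these transcripts become very abundant, and Jchain, the small protein that links IgM pentamers and IgA dimers, is switched on. C57BL/6 mice carry Ighg2c where some other strains carry Ighg2a.

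The heavy chain members lie in one row on the minus strand of chromosome 12, and in coordinates of GRCm38 (GENCODE M21 annotation) they follow the order of switching from high to low positions. Ighm lies at chr12:113418558-113422730, Ighd at chr12:113406604-113416324, Ighg3 at chr12:113356224-113361232 and Ighg1 at chr12:113325240-113330523. Farther downstream come Ighg2b at chr12:113302965-113307933, Ighg2c at chr12:113285325-113288932 and Igha at chr12:113254830-113260236. The kappa constant gene Igkc lies at chr6:70726435-70726966 on the plus strand, the lambda constant gene Iglc2 at chr16:19198396-19200351 on the minus strand and Jchain at chr5:88519809-88527891 on the minus strand. The annotated exons of Iglc2 overlap those of the joining segment Iglj2 over 6.21% of their length, and the exons of the other members overlap no other gene.

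The results turn on the 4 IgG genes, which are close copies of one another, so the sequences that tell their reads apart are shown here. The first 60 bases of the first constant domain exon (CH1) are given 5′ to 3′ on the coding strand, with capitals at the 22 positions where the 4 genes are not all alike. The other 38 positions are the same in all 4.
Ighg3 (chr12:113361173-113361232): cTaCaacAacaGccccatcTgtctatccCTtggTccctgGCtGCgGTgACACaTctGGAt
Ighg1 (chr12:113330464-113330523): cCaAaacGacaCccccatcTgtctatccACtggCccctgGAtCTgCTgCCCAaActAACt
Ighg2b (chr12:113307874-113307933): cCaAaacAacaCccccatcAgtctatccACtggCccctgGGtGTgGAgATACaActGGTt
Ighg2c (chr12:113288873-113288932): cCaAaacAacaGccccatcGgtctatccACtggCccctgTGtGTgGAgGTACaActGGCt

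The second exon of each gene encodes the hinge, the flexible stretch between the antigen-binding arms and the Fc part, and it differs between the genes in length as well as in sequence. It holds 48 bases in Ighg3, 39 in Ighg1, 66 in Ighg2b and 63 in Ighg2c.
Ighg3 (chr12:113360529-113360576): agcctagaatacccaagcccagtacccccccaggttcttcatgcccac
Ighg1 (chr12:113329844-113329882): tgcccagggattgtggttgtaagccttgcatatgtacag
Ighg2b (chr12:113307261-113307326): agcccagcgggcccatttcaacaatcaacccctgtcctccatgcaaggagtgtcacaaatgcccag
Ighg2c (chr12:113288263-113288325): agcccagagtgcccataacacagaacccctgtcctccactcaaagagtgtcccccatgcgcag

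Over the whole secreted transcript, Ighg2b and Ighg2c were the closest pair, with 86.4% of aligned bases identical, and the other 5 pairs had 75.0% to 77.0%. Of all stretches of 50 bases in the exons, 5.49% of those of Ighg2c and 4.15% of those of Ighg2b also occurred in another gene, 1.58% of those of Ighg3, 0.393% of those of Ighg1 0.288% of those of Jchain and 7.65% of those of Iglc2, where the partner was Iglc3. None occurred elsewhere for Ighm, Ighd, Igha and Igkc, and no stretch of 100 bases of any member was shared. Reads falling wholly in the shared stretches could be lost or split between the copies, and the read length is not given in the sources used here.

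Gene counts per library were 10734234 to 13649310, and a count of 3, taken as the detection floor, was 0.210 to 0.302 CPM on the TMM scale used for all CPM values here. Immunoglobulin genes of all kinds took 0.618% to 2.93% of gene counts and haemoglobin genes 1.24% to 13.1%. Transcripts of the mitochondrial genome took 5.08% to 10.7% in the aged libraries and 2.63% to 3.23% in the young ones, so they moved with age.

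Young replicate 2 stood apart from the other young libraries in most members. It was the deepest library, it had the smallest share of haemoglobin counts and the largest share of immunoglobulin counts. Against the median of the other 3 young libraries it was 10.8-fold higher in Ighg3, 7.11-fold in Ighg1, 6.75-fold in Jchain, 4.02-fold in Igkc, 3.28-fold in Ighg2b, 3.21-fold in Ighm, 2.83-fold in Igha, 2.55-fold in Ighg2c and 2.23-fold in Iglc2. Ighd was the exception, at 0.624 of that median. The members' fold changes and the ratios below are therefore given with and without this library. It was singled out after the members' values were seen, and leaving it out lowers the young mean of every member but Ighd. The results without it, p-values included, thus describe how far the values rest on this library and are no independent test.

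In the comparison of 3 aged with 4 young libraries, 3 of the 10 members were higher in aged cells (Ighg2c, Ighg2b and Igha) and none was lower, by edgeR's quasi-likelihood test at an adjusted p below 0.05. Of the 13904 genes tested in the whole table, 9.8% were higher and 6.94% lower by the same rule, 16.7% in either direction. The median log2 fold change was 1.40 over the members and 0.02 over all genes. At an unadjusted p under 0.05, Ighg1 and Igkc joined the 3 and no member was lower. The share of all genes at that threshold is not given, here or for the lists below. DESeq2, which called 9.37% of its genes higher, called 4 members higher and no member lower. Without young replicate 2 the test called 8 members higher, all but Ighd and Iglc2, where 9.11% of all genes were called higher and 5.4% lower. As that library was singled out on the members' own values, this count is a description only. In a bulk sample, fewer cells of a type and less RNA per cell cannot be told apart.

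**Figure D1:**
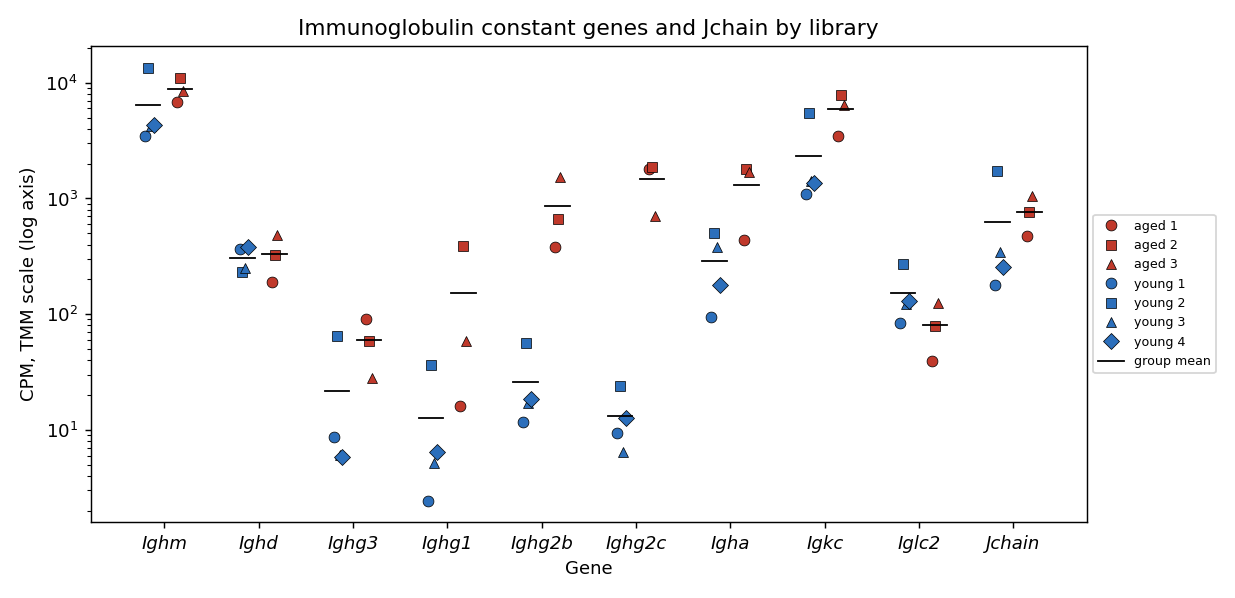
CPM of each member on the TMM scale (log axis) in every library, blue for the 4 young and red for the 3 aged libraries, with a horizontal line at each group mean. Ighg2b and Ighg2c are the members whose aged and young libraries do not overlap, and the blue square (young replicate 2) lies above all other libraries in Ighm, Iglc2 and Jchain.

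Ighg2c and Ighg2b encode the heavy chains of IgG2c and IgG2b, the subclasses that fix complement and bind activating Fc receptors, and they had the widest differences of the set. Ighg2c was at 1787, 1886 and 710 CPM in the aged libraries and at 9.44, 24.0, 6.40 and 12.5 CPM in the young ones. The lowest aged library was thus far above the highest young one. The means were 1461 ± 652 (SD, n = 3) and 13.1 ± 7.71 (SD, n = 4), a 111.5-fold ratio, and the log2 fold change was 6.80 (SE 0.56, edgeR adjusted p = 0.000483). The young values were low but counted, at 81 to 343 reads a library.

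Ighg2b was at 381, 670 and 1531 CPM in the aged libraries and at 11.7, 56.2, 17.1 and 18.6 CPM in the young ones. Here too the groups did not overlap, which was so, in the same direction, for 15.5% of all genes tested (29.9% in either direction). The means were 861 ± 598 (SD, n = 3) and 25.9 ± 20.4 (SD, n = 4), with a log2 fold change of 5.05 (SE 0.67, edgeR adjusted p = 0.00258). The order of the aged libraries was not the same in the pair: aged replicate 3 was the highest in Ighg2b and the lowest in Ighg2c. Both genes were called under all 16 alternatives, leave-one-out fits included, with log2 fold changes of 6.57 to 7.27 for Ighg2c and 4.34 to 5.76 for Ighg2b. The highest of each range was the value without young replicate 2.

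Genes listed as markers of the cells that make immunoglobulin were read in all libraries, though not all of them are confined to those cells. The summed CPM of 24 B cell markers was 1802 to 3232 in aged and 2631 to 4014 in young libraries, and that of 22 plasma cell markers was 2353 to 4450 in aged and 2353 to 3220 in young libraries. The spread of the plasma cell sum came largely from 1 gene, Tent5c, at 314, 2541 and 1220 CPM in the aged and 1704, 258, 1040 and 1112 CPM in the young libraries. Without it, a choice made after the values were seen, the other 21 genes summed to 2039, 1908 and 1899 CPM in the aged and 1516, 2095, 1568 and 1599 CPM in the young libraries, so that young replicate 2 was the highest of all and the other young libraries lay below every aged one. No gene of either list was at or under 3 counts throughout. In the plasma cell list, Sdc1 was at 6.99 to 20.2 CPM and Tnfrsf17 at 0.262 to 3.29 CPM over all libraries. Hsp90b1 was at 225 to 342 CPM and Cd28 at 136 to 253 CPM, so the sums are no measure of plasma cell content. Tent5c was highest in aged replicate 2 and lowest in young replicate 2, as was the haemoglobin share (13.1% and 1.24%). The part of these cells, and of the mitochondrial share, in the differences was not tested.

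Ighg1 encodes the IgG1 heavy chain, the subclass tied to helper T cell type 2 responses. It was at 16.1, 387 and 58.1 CPM in the aged libraries and at 2.45, 36.5, 5.13 and 6.38 CPM in the young ones. Aged replicate 2 held most of the aged signal, and young replicate 2 lay above aged replicate 1, so the groups overlapped. The log2 fold change was 3.59 (SE 1.16) and did not pass the test (edgeR adjusted p = 0.0672). It was 1.55 without aged replicate 2, and it passed the test without aged replicate 1 (4.12, adjusted p = 0.030) and without young replicate 2 (5.02, adjusted p = 0.0269).

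Ighg3 encodes the IgG3 heavy chain, a subclass made against bacterial polysaccharides and largely by B-1 and marginal zone B cells. It was at 91.3, 58.8 and 28.2 CPM in the aged libraries and at 8.74, 65.4, 6.08 and 5.88 CPM in the young ones. The overlap came from young replicate 2, which was second only to aged replicate 1. Its log2 fold change was 1.46 (SE 0.86, edgeR adjusted p = 0.276), and without young replicate 2 it was 3.11 (adjusted p = 0.00393).

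The 4 IgG genes together took 23.5%, 18.5% and 17.8% of heavy chain member counts in the aged libraries. In the young ones they took 0.821%, 1.26%, 0.712% and 0.879%. These shares do not depend on library scaling, and young replicate 2, although high in its amounts, lay with the other young libraries in this share. With Igha added, the switched classes took 28.0% to 30.8% of heavy chain counts in aged and 3.24% to 8.47% in young libraries, and Ighm took 65.5% to 70.05% in aged and 86.4% to 93.7% in young libraries. The exact 95% intervals (Clopper-Pearson, counting error only, as the cDNA carries no molecular identifiers) reached at most 0.31 percentage points from any share of heavy chain counts, and 5.12 points from the shares of IgG counts given next.

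Within IgG, the subclasses also differed between libraries of one age. Ighg2c made up 78.5% of IgG counts in aged replicate 1 and 62.8% in aged replicate 2, but 30.5% in aged replicate 3, close to the 29.2% of young replicate 1, the highest of the young libraries (13.2% to 29.2%). Ighg2b made up 16.8%, 22.3% and 65.8% in the aged libraries and 30.9% to 49.3% in the young ones. Ighg3 made up 1.21% to 4.01% in aged and 13.5% to 35.9% in young libraries, without overlap. Ighg1 made up 0.706%, 12.9% and 2.50% in the aged and 7.57% to 20.0% in the young libraries. Each aged library thus had its own IgG profile, led by Ighg2c in aged replicates 1 and 2 and by Ighg2b in aged replicate 3.

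**Figure D2:**
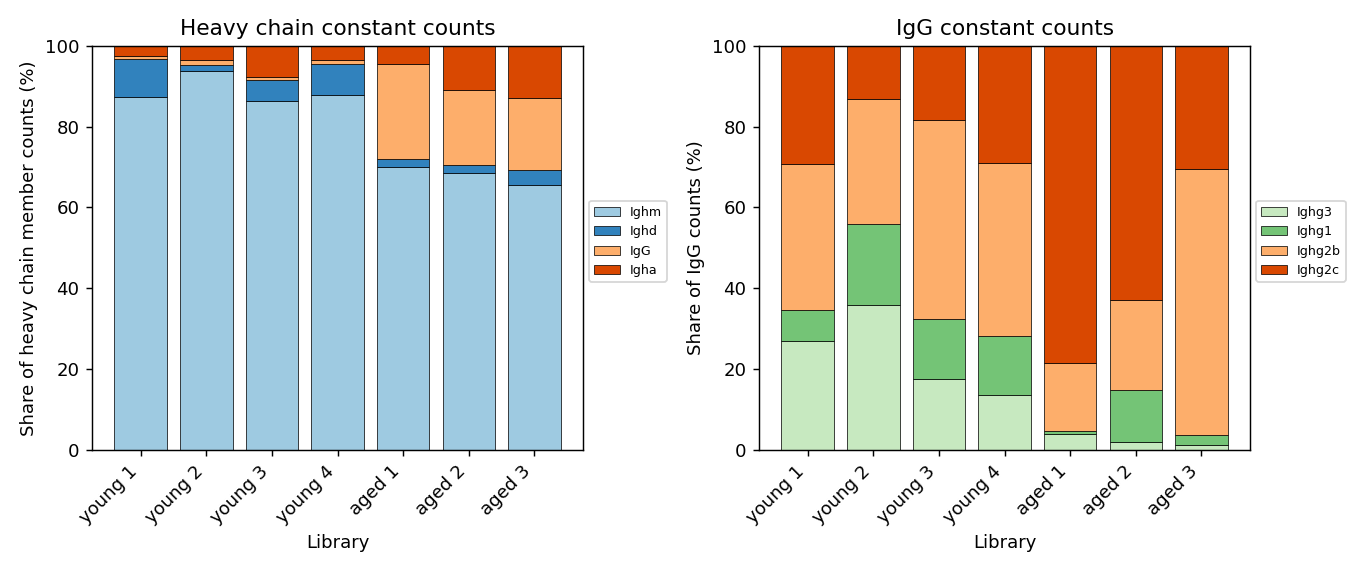
Stacked bars of the share (%) of heavy chain member counts taken by Ighm, Ighd, IgG and Igha (left) and of IgG counts taken by each subclass (right) in every library. IgG takes 17.8% to 23.5% of heavy chain counts in the aged and 0.712% to 1.26% in the young libraries, and Ighg2b leads IgG in aged replicate 3 where Ighg2c leads in aged replicates 1 and 2.

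Igha encodes the IgA heavy chain, the antibody of mucosal surfaces. It was at 437, 1780 and 1701 CPM in the aged libraries and at 95.2, 502, 379 and 177 CPM in the young ones. Aged replicates 2 and 3 lay above all young libraries, and aged replicate 1 lay below young replicate 2. Igha had a log2 fold change of 2.18 (SE 0.62, edgeR adjusted p = 0.0455). Without young replicate 2 it was 2.59 (adjusted p = 0.0341). The call was close to the threshold: it was lost when any library other than aged replicate 1 or young replicate 2 was left out (adjusted p = 0.0794 to 0.132), with library size in place of TMM (adjusted p = 0.0532), with limma voom (adjusted p = 0.0554) and with limma-trend (adjusted p = 0.0530). Igha took 4.51%, 11.0% and 13.0% of heavy chain counts in the aged libraries and 2.42% to 7.76% in the young ones, so the share overlapped as well.

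Ighm encodes the mu heavy chain of IgM and was the most abundant heavy chain in every library. It was at 6786, 11100 and 8561 CPM in the aged libraries and at 3444, 13531, 4215 and 4343 CPM in the young ones. All aged libraries lay above young replicates 1, 3 and 4 and young replicate 2 lay above all aged libraries. Its log2 fold change of 0.47 (SE 0.48) did not pass the test (edgeR adjusted p = 0.542), and without young replicate 2 it was 1.14 (SE 0.20, adjusted p = 0.0115).

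Ighd encodes the delta heavy chain of IgD, found on mature naive B cells and scarcely made by plasma cells. It was at 189, 324 and 484 CPM in the aged libraries and at 367, 229, 252 and 378 CPM in the young ones, and the aged libraries spanned the young range. The log2 fold change was 0.12 (SE 0.31, edgeR adjusted p = 0.834) and without young replicate 2 it was 0.00029 (adjusted p = 0.999). Its sign turned to -0.26 without aged replicate 3. In young replicate 2, where 9 members were at their highest among the young libraries, Ighd was at its lowest.

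Igkc encodes the constant region of the kappa light chain, which most mouse antibodies carry. It was at 3490, 7850 and 6456 CPM in the aged libraries and at 1087, 5489, 1414 and 1364 CPM in the young ones. Aged replicate 1 lay below young replicate 2, and the other young libraries lay below every aged library. The log2 fold change of 1.34 (SE 0.58) did not pass the test over all genes (edgeR adjusted p = 0.147), and without young replicate 2 it was 2.20 (adjusted p = 0.00377).

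Iglc2 encodes a constant region of the lambda light chain, the minor light chain of mice. It was at 39.7, 79.2 and 125 CPM in the aged libraries and at 83.5, 274, 123 and 129 CPM in the young ones, and it was the member with a negative log2 fold change, at -0.91 (SE 0.47, edgeR adjusted p = 0.217). The groups overlapped, and no alternative called it. Without young replicate 2 its log2 fold change was -0.46 (adjusted p = 0.438). Of the other lambda constant genes, Iglc1 had a log2 fold change of -0.64 (adjusted p = 0.390) and Iglc3 of -0.67 (adjusted p = 0.244), and both were at their highest in young replicate 2. Iglc4 and the IgE gene Ighe were too low to be tested, with at most 14 counts in any library.

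Jchain was at 477, 771 and 1044 CPM in the aged libraries and at 179, 1725, 343 and 256 CPM in the young ones. The highest library of all was young replicate 2, and the other young libraries lay below every aged one. Jchain had a log2 fold change of 0.29 (SE 0.74, edgeR adjusted p = 0.827), and without young replicate 2 it was 1.56 (SE 0.32, adjusted p = 0.0194). Without young replicate 1 it was -0.01, so that for Jchain the sign as well as the call turned on single libraries.

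**Figure D3:**
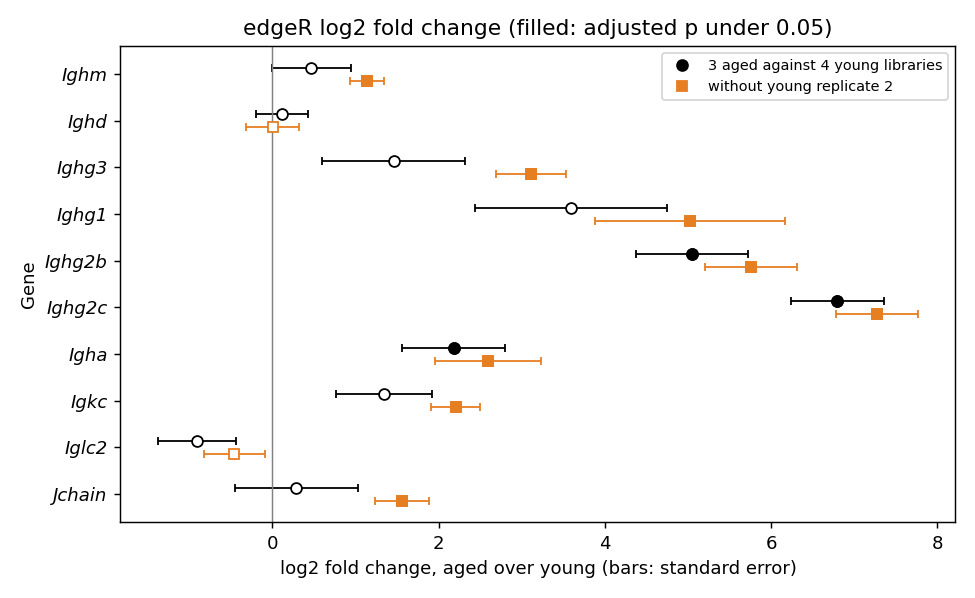
edgeR log2 fold change of each member, aged over young, with its standard error as a bar, from all 7 libraries (black circles) and without young replicate 2 (orange squares), filled where the adjusted p is under 0.05. With all libraries, Igha, Ighg2b and Ighg2c are filled (2.18, 5.05 and 6.80), and without young replicate 2 all members but Ighd and Iglc2 are.

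Ratios of members within a library need no scaling between libraries, and 6 of them were compared between the ages with an exact two-sided permutation test. With 3 against 4 libraries the smallest p that this test can give is 0.0571, so none could pass 0.05. The ratio of Iglc2 to Igkc counts was 0.0114, 0.0101 and 0.0193 in the aged libraries and 0.0768, 0.0499, 0.0867 and 0.0944 in the young ones. Every aged library lay below every young one, young replicate 2 included, with a mean log2 difference of -2.52 (exact p = 0.0571, adjusted over the 6 ratios 0.171). Iglc2 took 0.998% to 1.90% of Igkc and Iglc2 counts in aged and 4.75% to 8.62% in young libraries. With Iglc1 and Iglc3 counted too, a choice made after the values were seen, the lambda genes took 2.63% to 3.86% in aged and 10.6% to 16.5% in young libraries, again without overlap.

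The ratio of Jchain to Igkc counts was 0.0982 to 0.162 in the aged and 0.165 to 0.314 in the young libraries. The groups were separated by a narrow gap, with a mean log2 difference of -0.77 (exact p = 0.0571, adjusted 0.171). Igha over Ighm was 0.0644, 0.160 and 0.199 in the aged and 0.0276, 0.0371, 0.0899 and 0.0408 in the young libraries, a log2 difference of 1.53 with overlap (exact p = 0.114, adjusted 0.229). Ighd over Ighm had a log2 difference of -0.63 (exact p = 0.457), with the lowest ratio of all libraries, 0.0169, in young replicate 2. Without that library it was -1.20 and the groups did not overlap (exact p = 0.1, the smallest that 3 against 3 libraries can give). The other differences without it were -2.71 for Iglc2 over Igkc (exact p = 0.1), -0.59 for Jchain over Igkc (exact p = 0.1) and 1.45 for Igha over Ighm (exact p = 0.2).

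The remaining pair set a member against Cd79a, a signalling subunit of the B cell antigen receptor that B cells carry on their surface. Ighm over Cd79a was 42.1, 37.1 and 24.2 in the aged and 9.84, 42.4, 13.0 and 9.94 in the young libraries, and Jchain over Cd79a was 2.96, 2.58 and 2.95 in the aged and 0.512, 5.41, 1.06 and 0.585 in the young libraries. In both, young replicate 2 was the highest of all 7 libraries and the other young libraries were below every aged one. The log2 differences were 1.14 and 1.30 (exact p = 0.229 and adjusted 0.274 for both), and 1.63 and 2.05 without young replicate 2.

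**Figure D4:**
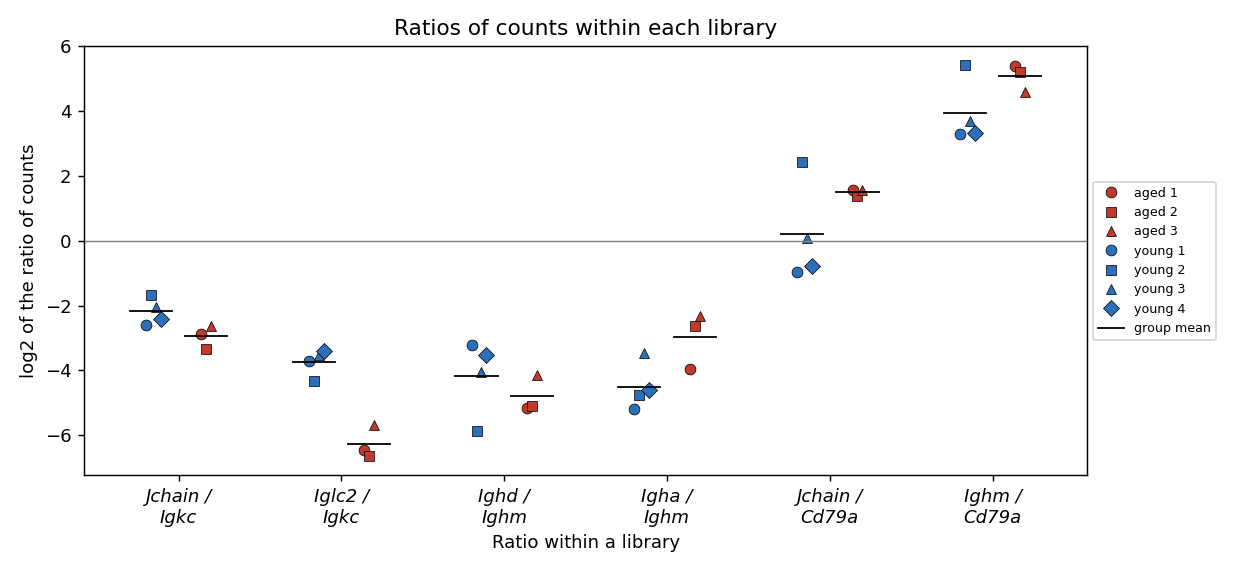
log2 of 6 ratios of counts in every library, blue for young and red for aged, with a line at each group mean. Iglc2 over Igkc lies lower in all aged libraries (mean log2 difference -2.52), as does Jchain over Igkc by a narrow gap, and in both ratios to Cd79a the blue square of young replicate 2 is the highest point.

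Levels were compared between genes as CPM per kilobase of annotated exon. This scale depends on the gene models, which differ in length between the IgG genes (1326 bases for Ighg2c and 2512 to 2678 for the others). In aged libraries the order of mean levels was Igkc (11150), Ighm (4674), Ighg2c (1102), Igha (490), Ighg2b (321), Jchain (304), Ighd (175), Iglc2 (133), Ighg1 (59.3) and Ighg3 (23.7). Igkc lay above Ighm and Ighm above Ighg2c without overlap between libraries, and every later neighbour overlapped. In young libraries the order was Igkc (4396), Ighm (3385), Jchain and Iglc2 (both 249), Ighd (161), Igha (108), Ighg2c (9.88), Ighg2b (9.68), Ighg3 (8.57) and Ighg1 (4.87). The libraries did not overlap at the step from Ighm to Jchain and at the step from Igha to Ighg2c. Ighg2c was at rank 3 of the 10 in aged and at rank 7 in young libraries.

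Across the 7 libraries, the log2 CPM of the 8 members other than Ighd and Iglc2 went up and down together, with Pearson's r of 0.45 to 0.95 over their 28 pairs. Pairs with Ighd had r of -0.44 to 0.20 and pairs with Iglc2 had r of -0.54 to 0.45. These values describe 7 libraries that differ in depth, in the markers of other cells and in age group. Among the 9321 genes that averaged at least 3 on the log2 CPM scale, the patterns most like that of Ighg2c were those of Pros1 (r = 0.99), Enpp5 (r = 0.99) and Armc7 (r = 0.99). For Jchain they were Fdx1l (r = 0.99), Smim15 (r = 0.98) and H13 (r = 0.97), and for Igkc Matn2 (r = 0.98), Pdcd1 (r = 0.98) and Ssr4 (r = 0.98). For Ighd they were H2-DMb1 (r = 0.99), H2-DMb2 (r = 0.97) and Ffar1 (r = 0.96), the first pair both encoding a beta chain of the MHC class II loading factor. These genes are the highest of 9321 over only 7 libraries, where a high r can arise by chance, and no relation to the members was tested.

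Of 24 B cell marker genes, 4 were lower in aged cells and none was higher in edgeR's test, with a median log2 fold change of -0.38, where 6.94% of all genes were lower. DESeq2 called 8 of them lower and 0 higher, where it called 1360 of 16543 genes lower. At an unadjusted p below 0.05 in edgeR's test, 10 were lower and 0 higher, with no share over all genes to set beside them. Spib, a transcription factor of B cells and plasmacytoid dendritic cells, was at 56.5, 99.2 and 108 CPM in the aged and 159 to 259 CPM in the young libraries (log2 fold change -1.23, edgeR adjusted p = 0.0137). Fcrla had a log2 fold change of -0.79 (adjusted p = 0.0354) and Tnfrsf13c, the receptor for the B cell survival factor BAFF, of -0.93 (adjusted p = 0.0391). The defining markers shown here did not pass the test: the log2 fold change was -0.65 for Ms4a1, which encodes CD20 (adjusted p = 0.0562), -0.40 for Cd79a (adjusted p = 0.314) and -0.50 for Cd79b (adjusted p = 0.258). The number called lower was 1 without aged replicate 2 or without young replicate 1, 3 or 4, and 7 without aged replicate 3.

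Of 22 plasma cell genes, 3 were higher and none was lower in edgeR's test, with a median log2 fold change of 0.30, where 9.8% of all genes were higher. DESeq2 called 4 of them higher and 0 lower, where it called 9.37% of its genes higher. At an unadjusted p below 0.05 in edgeR's test, 6 were higher and 2 lower, with no share over all genes to set beside them. Prdm1, the factor Blimp-1 that plasma cells and effector Tregs both use, was at 58.1, 38.0 and 53.9 CPM in the aged and 20.3, 36.2, 15.2 and 15.6 CPM in the young libraries (log2 fold change 1.20, edgeR adjusted p = 0.0326). Ell2, an elongation factor that favours secretory immunoglobulin transcripts, had 0.53 (adjusted p = 0.0173) and Creld2, a protein of the endoplasmic reticulum, 0.77 (adjusted p = 0.0230). Of the other defining markers, Sdc1 (CD138) was at 11.4 to 12.4 CPM in the aged libraries and spanned 6.99 to 20.2 CPM in the young ones (adjusted p = 0.930). Tnfrsf17, the receptor BCMA, was at 1.40 to 2.81 CPM in the aged and at 0.262, 3.29, 0.711 and 0.932 CPM in the young libraries (adjusted p = 0.564). Xbp1, Irf4 and Mzb1 had log2 fold changes of 0.41, 0.10 and 0.45 (adjusted p = 0.185, 0.691 and 0.216). Young replicate 2 was the highest of all libraries in Sdc1, Tnfrsf17, Xbp1 and Mzb1, and without it 7 genes of the list were called higher. Without young replicate 1, 3 or 4 the count was 1, and without any 1 of the aged libraries it was 2.

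**Figure D5:**
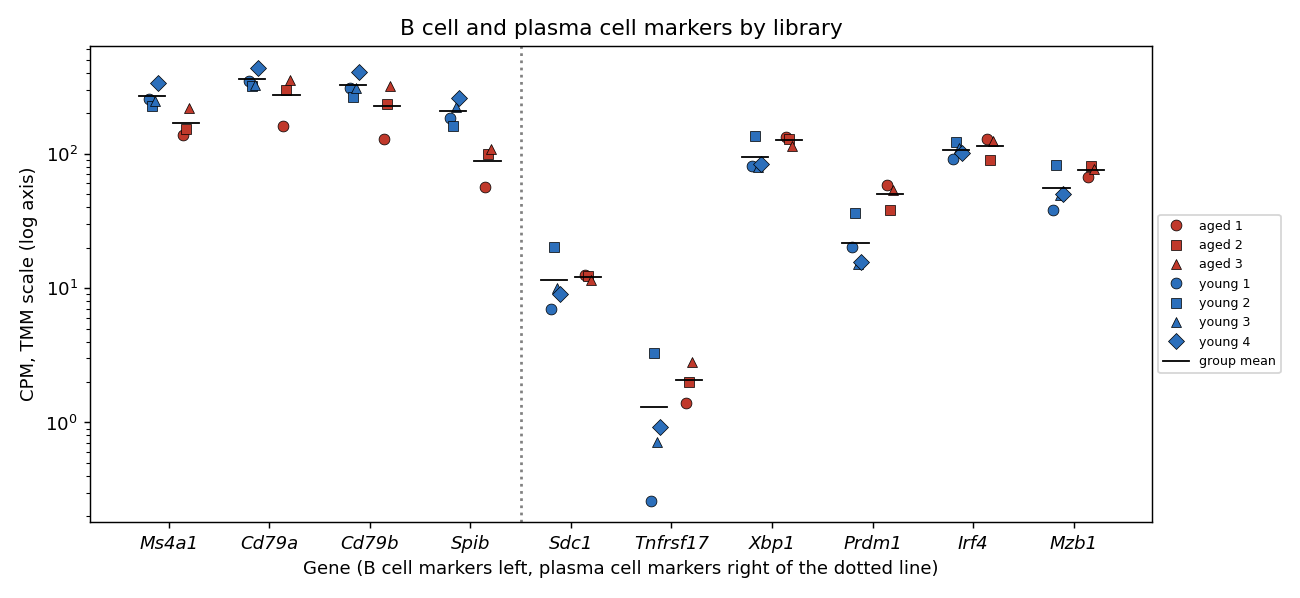
CPM on the TMM scale (log axis) of 4 B cell and 6 plasma cell markers in every library, blue for young and red for aged, with a line at each group mean. Spib is lower in all aged libraries, Cd79a overlaps between the ages, and the blue square of young replicate 2 is the highest point in Sdc1, Tnfrsf17, Xbp1 and Mzb1.

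Of 22 genes of class switching and the germinal centre, 21 were tested, 1 was higher and 4 were lower, where 9.8% of all genes were higher and 6.94% lower. Bach2, which holds back plasma cell differentiation in B cells and effector differentiation in T cells, was at 37.5 to 61.5 CPM in the aged and 95.02 to 131 CPM in the young libraries (log2 fold change -1.19, edgeR adjusted p = 0.00503). Xrcc6 of end joining, which cells of all kinds use for DNA repair, had -0.50 (adjusted p = 0.0294). The lower calls were 1 without aged replicate 2 or 3 or young replicate 4 and 2 without young replicate 3, and the higher call was lost without any library other than aged replicate 1.

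Of 13 receptors that bind immunoglobulin, 12 were tested, 2 were higher and 1 was lower, near the shares over all genes (9.8% higher and 6.94% lower). Fcmr, the receptor for IgM, was at 55.9, 76.1 and 104 CPM in the aged and at 188, 162, 156 and 235 CPM in the young libraries, without overlap (log2 fold change -1.24, SE 0.23, edgeR adjusted p = 0.00950). Fcgr2b, the inhibitory IgG receptor of B cells and myeloid cells, had 0.63 (adjusted p = 0.0473), and Trim21, the cytosolic IgG receptor, 0.49 (adjusted p = 0.0227). T cells and B cells both carry Fcmr. The lower call of Fcmr held without each library in turn (edgeR adjusted p = 0.0112 to 0.0334). It was lost with the replicate number as a block (adjusted p = 0.0821). The higher calls of receptors were 0 without aged replicate 3 or young replicate 1, 3 or 4 and with library size in place of TMM. They were 1 without young replicate 2 and 3 without aged replicate 2.

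Of 15 genes of B-1, marginal zone and age-associated B cells, 4 were higher and 3 lower, against 9.8% and 6.94% of all genes. Tbx21, the factor T-bet of age-associated B cells and of type 1 helper T cells, was at 14.4 to 18.3 CPM in the aged and 6.03 to 9.96 CPM in the young libraries (log2 fold change 1.04, edgeR adjusted p = 0.0105). Cd1d1 had 0.57 (adjusted p = 0.00509) and Plscr1 0.81 (adjusted p = 0.00838). The 3 lower genes were Dtx1 (-0.56, adjusted p = 0.0163), Cd5 (-0.42, adjusted p = 0.0422) and Zeb2 (-0.74, adjusted p = 0.0433), named after their values were seen. Of the other markers of age-associated B cells, Itgax had -0.72 (adjusted p = 0.0592), Itgam 1.18 (adjusted p = 0.211) and Fcrl5 0.38 (adjusted p = 0.270). The lower calls were 0 without young replicate 4 and 1 without aged replicate 2 or young replicate 1 or 3. Of 9 genes of pre-B cells, 6 were tested and 4 were lower (6.94% over all genes), among them Cd93 (-1.74, adjusted p = 0.00301), Dntt (-1.52, adjusted p = 0.0163) and Rag1 (-3.78, adjusted p = 0.0376), of which Rag1 and Dntt also serve receptor rearrangement in T cell precursors. The lower pre-B cell calls were 2 without aged replicate 3 or young replicate 1, 3 or 4.

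Markers of other spleen cells were counted in the same way. Of 12 neutrophil genes, 5 were higher in aged cells in edgeR's test, where 9.8% of all genes were higher, and 6 with DESeq2, where 9.37% were. At an unadjusted p below 0.05 in edgeR's test 12 were higher, with no share over all genes to set beside them. The summed CPM of these genes was 780 to 5810 in the aged and 295 to 1027 in the young libraries. Of 14 macrophage genes, 1 was higher and 4 lower, and of 12 dendritic cell genes, 1 was higher and 4 lower, beside 6.94% of all genes that were lower. Of 12 Treg genes, 2 were lower, and of 10 erythroid genes, none was called in either direction by edgeR (0 as well at an unadjusted p below 0.05 and with DESeq2). How far these cells bear on the member values was not tested.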

How the data were processed

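Splenic CD4+CD25+ cells of 3 aged and 4 young mice were profiled by RNA-sequencing of SMART-Seq v4 cDNA, which carries no molecular identifiers. For each library the authors deposited raw counts per Ensembl gene, whose naming is that of a union mode without strand, so reads on overlapping genes are given to neither. The submitters' processing notes name mm10, and the aligner and read length are not given in the sources used here. The lines of each file that name no gene, for unassigned and ambiguous reads (13.1% to 20.9% of all), were left out. The authors also deposited a table of size-factor normalized signal, used here only for gene symbols. Its log2 fold changes, their standard errors on the log2 scale, its test score and its p-values are the authors' own comparison and were not used.

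Counts were tested with edgeR 4.0.16 in R 4.3.3 (TMM, filterByExpr, quasi-likelihood test), with Benjamini-Hochberg adjustment over 13904 genes, and a gene was called with an adjusted p under 0.05. CPM are on the TMM scale. For ratios, 0.5 was added to each count. The study's methods name limma (3.58.1 here), which was an alternative, as were DESeq2 1.42.0, other scalings and filters, the replicate number as a block and each library left out. The procedure was tested on simulated data. Sequences and coordinates are from GENCODE M21 on GRCm38. Replicates of one age differed by more than sampling noise. Named genes are the members, the defining markers of each list, the 3 called genes with the smallest p-values in the lists of B cells, plasma cells, switching, receptors, pre-B cells and B cell subsets, and the 3 genes most correlated with Ighg2c, Jchain, Igkc and Ighd. Results for some of them are not given here. The members and gene lists were chosen with earlier results of these data known. The study's methods give the age of young mice as 10 weeks.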

Additional observations from a re-analysis of the deposited data

Results flagged for a closer look

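Of 28 values examined over the 4 young libraries, 7 had 1 library far from the rest by Dixon's criterion (gap to the nearest library over the range of the group, at the 95% level), and in all 7 it was young replicate 2. By chance about 1 group in 20 is singled out in this way, if its values are normally distributed. The 7 values were taken as CPM or percent, while the ratios were taken as log2, and what is flagged can depend on that scale. The values of young replicate 2 were 36.5 CPM for Ighg1, 56.2 CPM for Ighg2b, 65.4 CPM for Ighg3, 13531 CPM for Ighm, 5489 CPM for Igkc and 1725 CPM for Jchain, and its share of gene counts on the members was 2.29%. The other 3 young libraries were at 2.45 to 6.38 CPM for Ighg1, 11.7 to 18.6 CPM for Ighg2b, 5.88 to 8.74 CPM for Ighg3, 3444 to 4343 CPM for Ighm, 1087 to 1414 CPM for Igkc and 179 to 343 CPM for Jchain. These genes come from the same libraries and are not independent of each other. Groups of 3 aged libraries are too small for this criterion.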

How the results depend on the processing

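Ighg2b and Ighg2c were called in all 16 alternatives and Igha in 8, and Ighg1 in 5, among them DESeq2 (adjusted p = 0.0365). Ighg3, Ighm, Igkc and Jchain were called only without young replicate 2, and Ighd and Iglc2 in none. The count of members called higher was 2 to 8 when single libraries were left out and 2 to 4 in the other alternatives, and the count called lower was 0 throughout. Ighd turned to -0.26 without aged replicate 3 (0.39 without aged replicate 1), and Jchain to -0.01105 without young replicate 1 (1.56 without young replicate 2). The 6 ratios kept their direction in every alternative. Over all genes, 1362 were higher and 965 lower, against 757 and 259 when a log2 fold change of 1 or more in size was also required, and 783 to 1603 and 448 to 1455 with single libraries left out. With the replicate block there were 202 and 90, with 69.2% of calls higher in place of 58.5%, and 4 members were called higher. Same-numbered libraries showed no sign of deviating together (r = -0.09, -0.29 and -0.14 for replicates 1, 2 and 3, beside -0.24 to 0.23 for differently numbered ones). The labels give no pairing, and so few libraries cannot exclude one. Of the lists, B cell genes called lower were 1 to 7 with single libraries left out, 8 with DESeq2 and 0 with the block, and plasma cell genes called higher were 1 to 7, 4 and 0. Receptors called higher were 0 to 3 with single libraries left out, 3 with DESeq2 and 0 with the block, which also left none of them lower. With 3 and 4 libraries a group, exact tests could not reach 0.05.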
